A study of Mus musculus with 12 samples.

Results

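The adult haemoglobin genes Hba-a1, Hba-a2, Hbb-bs and Hbb-bt, the haem synthesis gene Alas2 and the erythroid miRNAs miR-451a, miR-144-3p, miR-144-5p and miR-486a-5p were followed in mouse hippocampus. They are 5 of the 24736 gene symbols of a total RNA table and 4 of the 1978 mature miRNAs of a small RNA table, and were picked by name with earlier results of these data in view. Which values had led to the choice is not recorded, so the levels and genotype differences of these 9 features are given as a description. All 9 were present, and all 9 passed the expression filter. The mice were 4-month-old males. One group was APP/PS1, transgenic for APPswe and PSEN1dE9, which are altered human amyloid precursor and presenilin genes, and the other was wild-type (WT) littermates. Each table has 3 APP/PS1 and 3 WT columns, from 3 mice of each genotype as the series text has it. The total RNA libraries are called by genotype and replicate number. The small RNA columns carry headings that equal the titles of total RNA libraries, so they are called by heading, and nothing in the labels says which total RNA library came from the same mouse as such a column. The labels name no strain background, promoter, perfusion step or batch.

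Haemoglobin, the oxygen carrier of red blood cells, is built from alpha chains, encoded by Hba-a1 and Hba-a2, and beta chains. Young red cells, the reticulocytes, have lost their nucleus but still hold globin mRNA, so globin transcripts in a tissue extract can come from blood in its vessels, and low globin expression has also been described in neurons and glia. Alas2 encodes the erythroid aminolevulinate synthase, the first enzyme of haem synthesis in red cell precursors. The Mir144 and Mir451a genes share a primary transcript that the erythroid factor GATA1 switches on, and miR-451a is cut from its hairpin by an Argonaute protein instead of Dicer. The gene of miR-486 lies within Ank1, which encodes ankyrin, a membrane skeleton protein of red cells that is also made in muscle and brain.

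The miRNA sequences are shown because the 3 members of the Mir144 and Mir451a locus come from neighbouring hairpins and yet have 3 different seeds, the bases that pair with target mRNAs. Mature sequences are from RefSeq on GRCm38.p6, the same build as mm10, with each seed (bases 2 to 8) in capitals. All 3 lie on the plus strand, at chr11:78073186-78073207 for miR-451a, chr11:78073047-78073066 for miR-144-3p and chr11:78073010-78073032 for miR-144-5p. The 2 precursor genes are 99 bases apart.
mmu-miR-451a: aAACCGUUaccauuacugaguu
mmu-miR-144-3p: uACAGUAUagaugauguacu
mmu-miR-144-5p: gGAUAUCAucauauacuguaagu

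The promoters are shown to set the neighbouring globin genes, and Alas2, side by side at their starts. They do not bear on how reads of the transcripts were assigned, and transcript sequences were not compared. Each window runs from 250 bases before to 50 bases after the annotated start (RefSeq, GRCm38.p6), 5′ to 3′ on the gene's own strand. Capitals mark GATAAG (the core bound by GATA factors), CACCC (the box bound by Klf1 and its relatives), CCAAT (a common promoter box) and the TATA-like ATATAA, all searched on both strands, where a match on the minus strand shows as its reverse complement. The Hba-a1 window is at chr11:32283422-32283721 (plus strand), Hbb-bs at chr7:103827879-103828178 (minus), Hbb-bt at chr7:103813874-103814173 (minus) and Alas2 at chrX:150547167-150547466 (plus).
Hba-a1: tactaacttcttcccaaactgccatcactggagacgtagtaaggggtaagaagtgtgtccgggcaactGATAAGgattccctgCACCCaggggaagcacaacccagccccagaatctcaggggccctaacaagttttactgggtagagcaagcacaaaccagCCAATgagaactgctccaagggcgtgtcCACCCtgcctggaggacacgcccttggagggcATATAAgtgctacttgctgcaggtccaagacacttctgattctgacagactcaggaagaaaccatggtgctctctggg
Hbb-bs: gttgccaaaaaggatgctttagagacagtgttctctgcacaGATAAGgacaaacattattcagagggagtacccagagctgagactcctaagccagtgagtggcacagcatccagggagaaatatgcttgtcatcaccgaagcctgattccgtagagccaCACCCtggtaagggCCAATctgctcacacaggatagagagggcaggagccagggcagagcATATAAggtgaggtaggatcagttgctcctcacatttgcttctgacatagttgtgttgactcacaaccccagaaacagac
Hbb-bt: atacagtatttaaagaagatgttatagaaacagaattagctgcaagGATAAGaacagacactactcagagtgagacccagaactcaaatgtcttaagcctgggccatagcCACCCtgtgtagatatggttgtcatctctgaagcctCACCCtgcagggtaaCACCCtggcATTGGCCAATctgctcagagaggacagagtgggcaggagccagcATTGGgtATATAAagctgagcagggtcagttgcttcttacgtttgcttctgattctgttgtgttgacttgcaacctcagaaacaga
Alas2: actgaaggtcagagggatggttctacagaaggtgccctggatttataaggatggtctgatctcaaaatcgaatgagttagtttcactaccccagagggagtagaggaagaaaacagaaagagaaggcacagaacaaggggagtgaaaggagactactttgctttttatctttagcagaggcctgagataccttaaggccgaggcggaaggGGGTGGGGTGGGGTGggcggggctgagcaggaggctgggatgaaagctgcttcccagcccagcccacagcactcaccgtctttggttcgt

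The window of Hba-a2 (chr11:32296242-32296541) shares an unbroken run of 297 of its 300 bases with that of Hba-a1, and the genes lie 12005 bases apart. The longest run shared by the windows of Hbb-bs and Hbb-bt is 14 bases. All 4 globin windows hold each of the 4 motifs, a combination found in 0.216% of 32851 windows of the same length. Taken singly, GATAAG was in 7.44% of all windows, CACCC in 57.5%, CCAAT in 37.4% and ATATAA in 9.82%. The Alas2 window holds CACCC, on the minus strand, and none of the other 3 motifs by these letters.

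The total RNA libraries held 120958765 to 146904552 estimated counts and the small RNA columns 15593728 to 21631169 counts. Values are given as CPM, the usual rescaling of counts to a common library size, here after TMM scaling, and SD is over the 3 libraries of a genotype. Transcripts of hippocampal neurons were present in every library, with the granule cell factor Prox1 at 111 to 142 CPM in APP/PS1, against 130 to 145 CPM in WT. APP/PS1 replicate 3 stood apart. In it 10 cerebellar markers summed to 4154 CPM, against 74.8 to 116 CPM in the other 5 libraries, and the CA field marker Neurod6 was at 123 CPM, against 216 to 262 CPM. Replicates were taken as separate mice, and p-values set the genotype difference against the spread between these libraries.

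Transcripts of the alpha chain were present in all 6 libraries at similar levels in both genotypes, but their split between the 2 copies differed from library to library. The cause of the changing split was not tested. Hba-a1 lies on chromosome 11 at 32283672 to 32284486 and Hba-a2 at 32296492 to 32297310. Hba-a1 had 16082, 23279 and 40611 estimated counts in APP/PS1 replicates 1, 2 and 3, against 22072, 1 and 17764 in WT replicates 1, 2 and 4. Hba-a2 had 0, 1528 and 130 in the same APP/PS1 replicates, against 11035, 20566 and 5556 in the WT replicates. Hba-a1 thus held nearly all alpha counts in APP/PS1 replicates 1 and 3, while WT replicate 2 had nearly all of them on Hba-a2. The Hba-a1 share was 100% (95% Wilson interval 99.9 to 100), 93.8% (93.2 to 94.4) and 99.7% (99.6 to 99.8) in the APP/PS1 replicates. In WT replicates 1, 2 and 4 it was 66.7% (65.6 to 67.7), 0.00486% (0 to 0.0747) and 76.2% (75.1 to 77.3). Intervals were computed on the estimated counts divided by 4 and cover counting error only. The 0 of Hba-a2 in APP/PS1 replicate 1 allows up to 0.0746% of the alpha counts there, taking 12 estimated counts (3 fragments) as the limit of a count of 0.

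For each alpha copy on its own, the fitted log2 fold change, APP/PS1 over WT, was 1.00 (SE 1.64) for Hba-a1 and -4.56 (SE 1.64) for Hba-a2. The CPM of Hba-a2 did not overlap between the genotypes, at 0, 11.3 and 0.95 in APP/PS1 and 90.8, 162 and 37.7 in WT. It was the 1 member gene of 5 without overlap. Over all genes tested 10.4% did not overlap, 5.63% higher and 4.76% lower in APP/PS1, and since the members were chosen with their values known, nothing is read from this. Because the transcripts of such gene copies can share reads, the values of the single copies are uncertain. The alpha sum, which does not depend on that split, was 136, 184 and 298 CPM in APP/PS1 replicates 1, 2 and 3, against 272, 162 and 158 CPM in WT replicates 1, 2 and 4. It averaged 206 ± 83.5 CPM over the APP/PS1 libraries and 198 ± 64.7 CPM over those of WT (SD, n = 3 per genotype), and the groups overlapped. The log2 ratio of means was 0.06, and it was -0.31 without APP/PS1 replicate 3, -0.07 without WT replicate 2 and -0.08 without WT replicate 4.

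**Figure D1:**
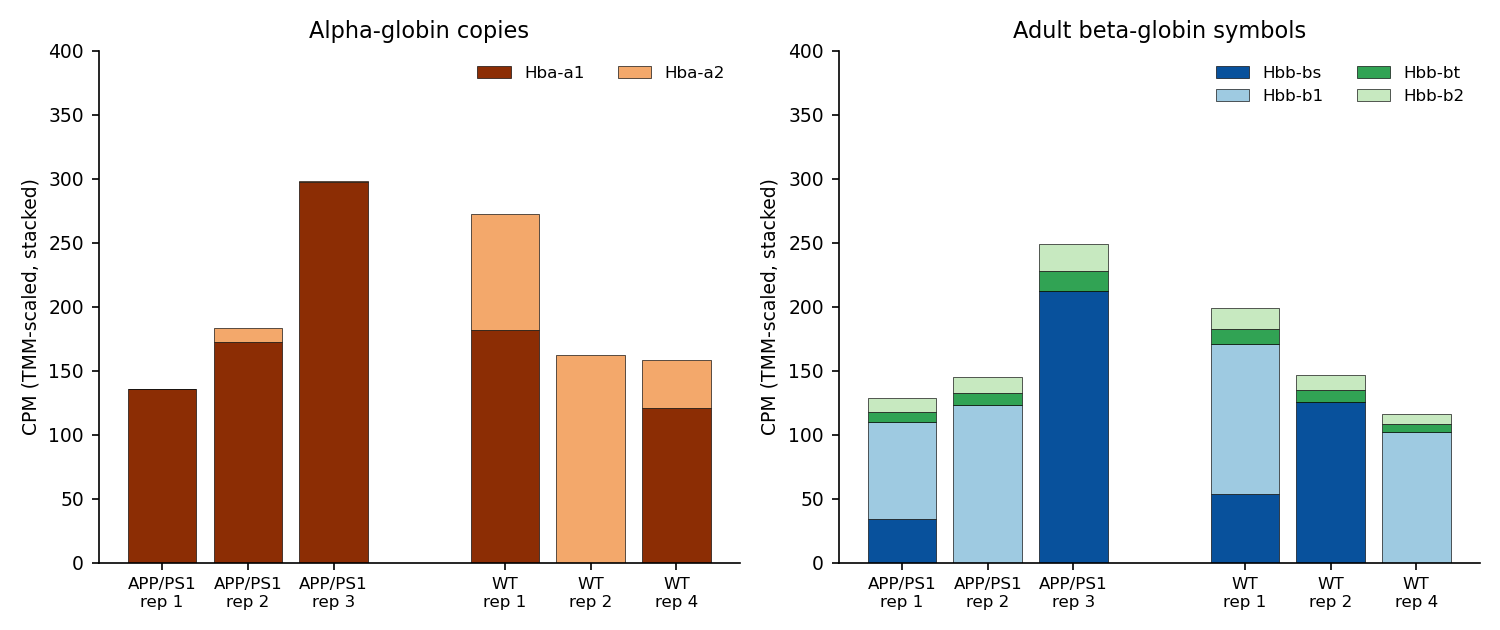
CPM of alpha-globin copies (left) and adult beta-globin symbols (right), stacked for each total RNA library; colours are the symbols and bar height is their sum. The stacks are made up differently in different libraries, as with Hba-a1 at 297 CPM in APP/PS1 replicate 3 and Hba-a2 at 162 CPM in WT replicate 2.

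The beta chain behaved likewise for its major gene and not for its minor gene. Mouse strains carry either of 2 adult beta haplotypes, with the genes Hbb-bs and Hbb-bt in one, as in the reference strain, and Hbb-b1 and Hbb-b2 in the other, and the table lists all 4 symbols. Hbb-bs (chromosome 7, 103826523 to 103827928) had 4078, 0 and 28958 estimated counts in APP/PS1 replicates 1, 2 and 3, against 6490, 15918 and 0 in WT replicates 1, 2 and 4. Hbb-b1 had 8937, 16613 and 9, against 14267, 8 and 15073, in the same libraries. Each genotype therefore had 1 library with Hbb-b1 and no Hbb-bs, 1 with Hbb-bs and almost no Hbb-b1, and 1 with both. In the libraries with both, Hbb-b1 took 68.7% (95% Wilson interval 67.0 to 70.2) of the pair in APP/PS1 replicate 1 and 68.7% (67.5 to 70.0) in WT replicate 1. Neither assignment of reads between similar copies nor a difference in beta haplotype between mice was tested as the cause.

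Hbb-bt (chromosome 7, 103812524 to 103813923), which lies 12599 bases from Hbb-bs on the same strand, did not switch. It had 8.28, 9.43 and 16.1 CPM in APP/PS1 replicates 1, 2 and 3, against 11.8, 9.64 and 5.75 CPM in WT replicates 1, 2 and 4. Its partner Hbb-b2 had 10.9, 12.8 and 21.1 CPM, against 16.5, 11.7 and 8.30 CPM. Hbb-b2 took 56.8% to 57.6% of this pair in APP/PS1 and 54.8% to 59.0% in WT, so the minor genes kept their proportion in the libraries where the major pair changed over. The fitted log2 fold change was 0.32 (SE 0.34) for Hbb-bt and 0.46 (SE 2.33) for Hbb-bs. Over 11 alternative settings, among them leaving out each library, the value for Hbb-bs ran from -4.45 to 1.63 and changed sign in 3, and that for Hbb-bt ran from -0.27 to 0.56 and changed sign in 2. Without APP/PS1 replicate 3 the values were -1.80 for Hbb-bs and -0.03 for Hbb-bt, and without WT replicate 4 that for Hbb-bs was -0.12.

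Summed over the 4 beta symbols, beta-globin stood at 129, 145 and 249 CPM in APP/PS1 replicates 1, 2 and 3, against 199, 147 and 116 CPM in WT replicates 1, 2 and 4. The log2 ratio of means was 0.18, and -0.17 without APP/PS1 replicate 3. The sum of Hbb-bs and Hbb-bt alone ran from 9.43 to 228 CPM in APP/PS1, against from 5.75 to 135 CPM in WT, because it omits the libraries' Hbb-b1. The alpha sum over the 4-symbol beta sum, as a ratio of estimated counts, was 1.05, 1.26 and 1.20 in APP/PS1 replicates 1, 2 and 3, against 1.37, 1.10 and 1.36 in WT replicates 1, 2 and 4. This ratio differed by at most 1.30-fold between libraries, while the alpha sum itself differed by up to 2.20-fold. The minor genes made up 14.9%, 15.3% and 14.9% of the beta counts in the APP/PS1 replicates, against 14.2%, 14.5% and 12.1% in the WT replicates, without overlap. Over all genes tested 10.4% did not overlap. No such share was computed for ratios of genes, and nothing is read from this.

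Total haemoglobin over all 6 adult copies was 265, 329 and 547 CPM in APP/PS1 replicates 1, 2 and 3, against 471, 309 and 275 CPM in WT replicates 1, 2 and 4. It was highest in APP/PS1 replicate 3 and WT replicate 1, and the groups overlapped widely. The means were 380 ± 148 CPM for APP/PS1 and 352 ± 105 CPM for WT (SD over 3 libraries each), a log2 ratio of 0.11. Without APP/PS1 replicate 3, the library with cerebellar markers, the log2 ratio was -0.24, and without WT replicate 4 it was -0.04. The sum of the 4 listed copies, Hbb-b1 and Hbb-b2 left out, gave 299 ± 197 CPM for APP/PS1 and 266 ± 90.7 CPM for WT, a log2 ratio of 0.17, or -0.52 without APP/PS1 replicate 3. All these differences between means are smaller than the SD of the WT libraries. A difference in the number of red cells and one in RNA per cell cannot be told apart in such bulk samples.

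Alas2 (chromosome X, 150547417 to 150570622) varied less than the globins. It stood at 6.75, 9.18 and 10.2 CPM in APP/PS1 replicates 1, 2 and 3, against 11.0, 9.82 and 8.68 CPM in WT replicates 1, 2 and 4. Both genotypes covered much the same range, with means of 8.72 ± 1.79 CPM for APP/PS1 and 9.84 ± 1.17 CPM for WT (SD over 3 libraries each) and a fitted log2 fold change of -0.17 (SE 0.18). Like haemoglobin it was lowest in APP/PS1 replicate 1 and highest in APP/PS1 replicate 3 and WT replicate 1. The ratio of 6-copy haemoglobin to Alas2, in estimated counts, was 39.2, 35.8 and 53.5 in APP/PS1 replicates 1, 2 and 3, against 42.8, 31.5 and 31.7 in WT replicates 1, 2 and 4.

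**Figure D2:**
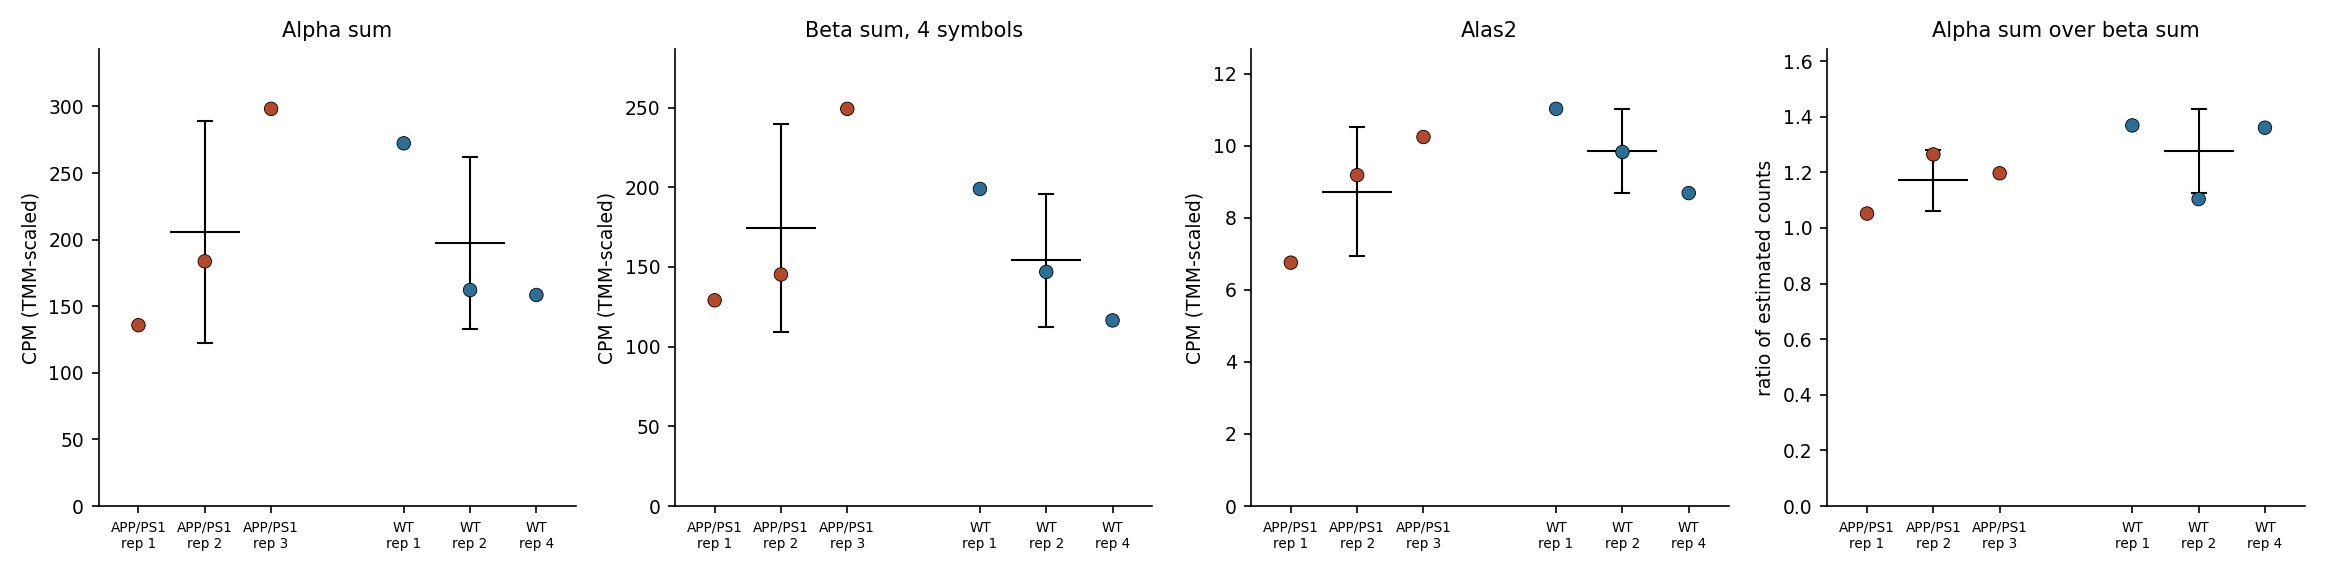
Alpha sum, beta sum over 4 symbols and Alas2 in CPM, and the ratio of alpha to beta estimated counts, for each total RNA library; points are libraries, horizontal lines group means and vertical bars SD (n = 3 each). The genotypes overlap in every panel, and the ratio stays between 1.05 and 1.37.

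With edgeR's quasi-likelihood test over 18060 genes, 0 of the 5 member genes had an adjusted p under 0.05 (background 0.00554%), and 1, Hba-a2, had an unadjusted p under 0.05. DESeq2 gave the same counts, 0 and 1. Of the 4 member miRNAs 0 passed with edgeR, as did 0 of all 703 tested (background 0%), and 0 members had an unadjusted p under 0.05 with edgeR or DESeq2. None of the 4 was without overlap between genotypes, beside 7.11% of all miRNAs tested, 2.7% higher and 4.41% lower in APP/PS1. These counts are a description of members chosen with the contrast known.

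Spread between libraries differed among the members. Across all 18060 genes the median ratio of the highest to the lowest library was 1.51. That ratio was 2.79 for Hbb-bt, reached by 15.9% of all genes and by 5.82% of the 4123 genes within 2-fold of its mean level. It was 2.07 for the 6-copy haemoglobin sum, reached by 27.4% of genes, and 1.63 for Alas2, reached by 43.0%. Hba-a1, with 1 estimated count in WT replicate 2, had a ratio reached by 2.38% of all genes. Among the 2625 genes within 2-fold of its mean level 0.0381% reached it, which is Hba-a1 itself. The count of 1 in WT replicate 2 all but fixes this rank, so nothing is read from either share. Hba-a2 and Hbb-bs, with 0 counts in at least 1 library, have no finite ratio. A 0 fixes their rank in advance, so no share is given for them. Among miRNAs the median ratio was 1.76, with 1.96 for miR-451a, 2.46 for miR-144-3p, 1.95 for miR-144-5p and 6.61 for miR-486a-5p.

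The miRNAs of the Mir144 and Mir451a locus were at similar levels in both genotypes. miR-451a, which in mice is needed for late red cell maturation, had 3158, 4889 and 5578 counts in columns APP1, APP2 and APP3, against 6011, 3652 and 5745 in columns WT1, WT2 and WT4. In CPM these were 205, 279 and 385, against 260, 197 and 345. The columns of both genotypes were interleaved, with means of 290 ± 90.8 CPM for APP/PS1 and 267 ± 74.1 CPM for WT (SD over 3 columns each) and a fitted log2 fold change of 0.12 (SE 0.28). Without column APP3 the log2 ratio of means was -0.14, and without column WT2 it was -0.06.

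miR-144-3p, the arm with the seed ACAGUAU, stood at 15.6, 26.7 and 38.3 CPM in columns APP1, APP2 and APP3, against 25.8, 36.5 and 32.0 CPM in columns WT1, WT2 and WT4. miR-144-5p, the other arm of the same hairpin, stood at 14.2, 19.7 and 27.7 CPM, against 21.3, 15.4 and 18.3 CPM. Column APP1 was the lowest and column APP3 the highest for both arms, with WT columns between them. The fitted log2 fold changes were -0.23 (SE 0.32) and 0.16 (SE 0.27), both smaller than their SE. That of miR-144-3p was 0.06 without column APP1, and that of miR-144-5p was -0.08 without column APP3. Counts of miR-144-5p were 6.93% to 7.19% of those of miR-451a in APP/PS1 and 5.31% to 8.18% in WT. Counts of miR-144-3p were 7.63% to 9.95% of those of miR-451a in APP/PS1 and 9.30% to 18.5% in WT, with column WT2 the highest.

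miR-486a-5p followed another pattern. It stood at 161, 163 and 1065 CPM in columns APP1, APP2 and APP3, against 208, 181 and 198 CPM in columns WT1, WT2 and WT4. Column APP3 alone was high, at 5.87 times the median of the other 5 columns, and columns APP1 and APP2 were below every WT column. The other arm, miR-486a-3p, had 5.05, 4.17 and 38.5 CPM in the APP/PS1 columns, against 4.28, 5.13 and 4.68 CPM in the WT columns, with column APP3 at 8.23 times the median of the others. Its counts equal those of miR-486b-3p in all 6 columns, and those of miR-486a-5p equal miR-486b-5p, so the a and b forms cannot be separated. In the same column miR-451a was at 1.48 times, miR-144-3p at 1.44 times and miR-144-5p at 1.51 times the median of the others. The fitted log2 fold change of miR-486a-5p was 1.24 (SE 0.67), and -0.24 (SE 0.14) without column APP3.

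**Figure D3:**
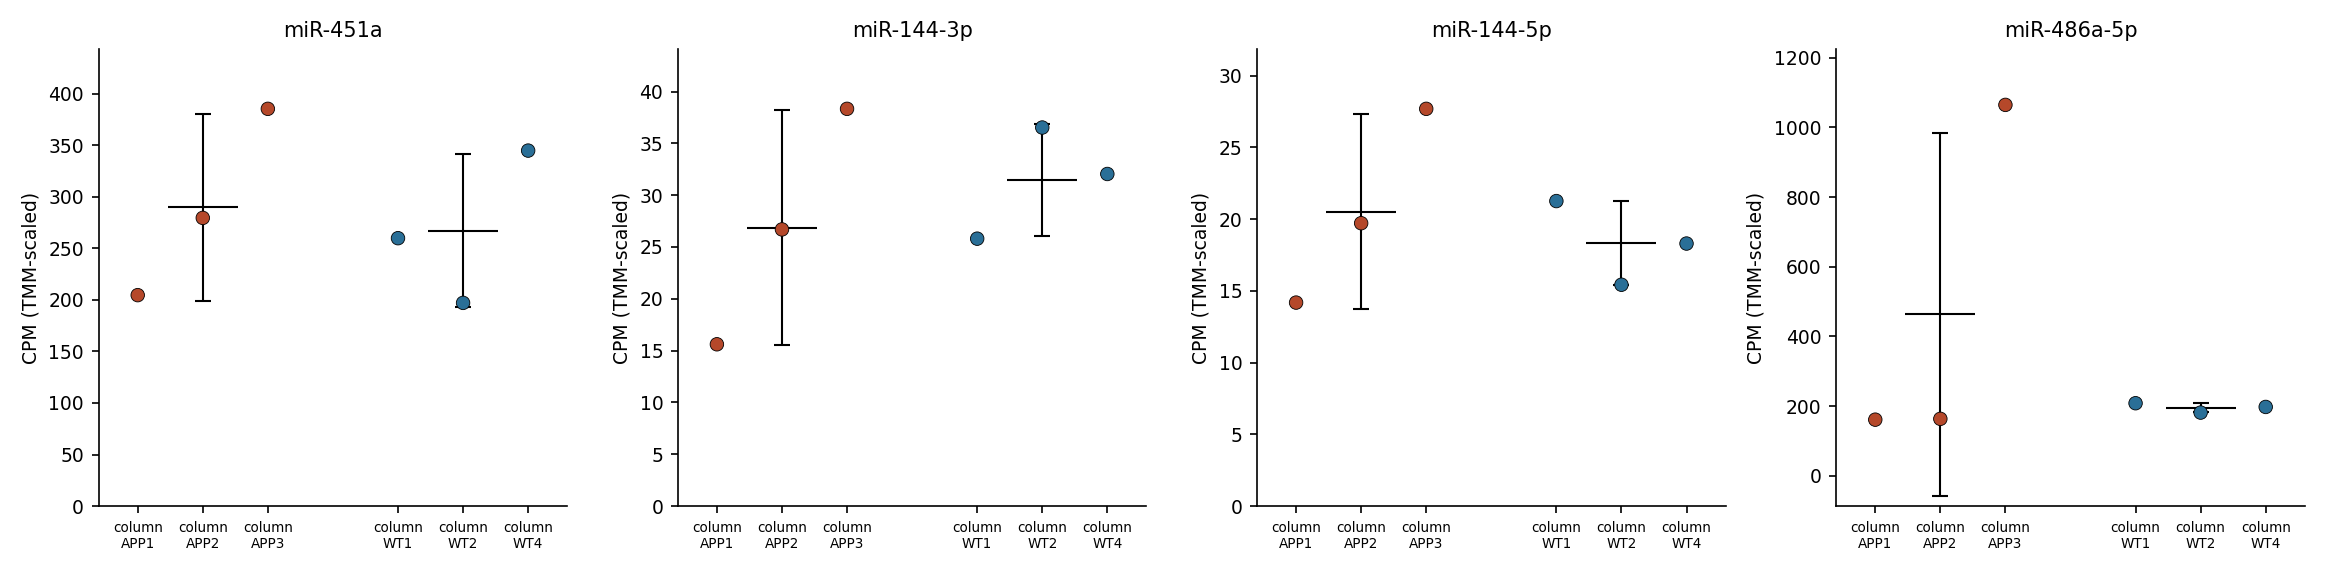
CPM of the 4 erythroid miRNAs in each small RNA column; points are columns, horizontal lines group means and vertical bars SD (n = 3 each), which for miR-486a-5p in APP/PS1 reach below 0. Genotypes overlap for miR-451a and both miR-144 arms, whereas miR-486a-5p is at 161 to 208 CPM in 5 columns and at 1065 CPM in column APP3.

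Ank1 (chromosome 8, 22974836 to 23150501), the gene that holds the Mir486 hairpin at 23142555 to 23142682, was high in APP/PS1 replicate 3 of total RNA. It stood at 75.3, 78.1 and 592 CPM in APP/PS1 replicates 1, 2 and 3, against 87.5, 87.1 and 98.8 CPM in WT replicates 1, 2 and 4. APP/PS1 replicate 3 was thus at 6.79 times the median of the other 5 libraries, and the other 2 APP/PS1 libraries were the lowest of the 6. Its log2 fold change was 1.45 (SE 0.81), with edgeR's adjusted p of 0.887, and -0.25 (SE 0.08) without APP/PS1 replicate 3, with edgeR's adjusted p of 0.995. Ank1 is on the list of red cell membrane genes described further on. A ratio to the highest other library at least as large as that of Ank1 was seen in 105 genes (0.581%), Ank1 included.

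The cerebellar markers moved with Ank1 in that library. All 10 were highest in APP/PS1 replicate 3, with Gabra6, a GABA receptor subunit of cerebellar granule cells, at 283 CPM against 0 to 0.33 CPM in the other 5, and Pcp2, of Purkinje cells, at 163 against 0.32 to 0.68 CPM. Skeletal muscle markers summed to 3.07 CPM there, against 3.76 to 5.05 CPM in the other libraries, so muscle genes were low in all 6. Haemoglobin over 6 copies was at 1.77 times the median of the others in that library and Alas2 at 1.12 times. The part of cerebellar RNA in the Ank1, Epb41, Sptb and haemoglobin values was not tested.

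**Figure D4:**
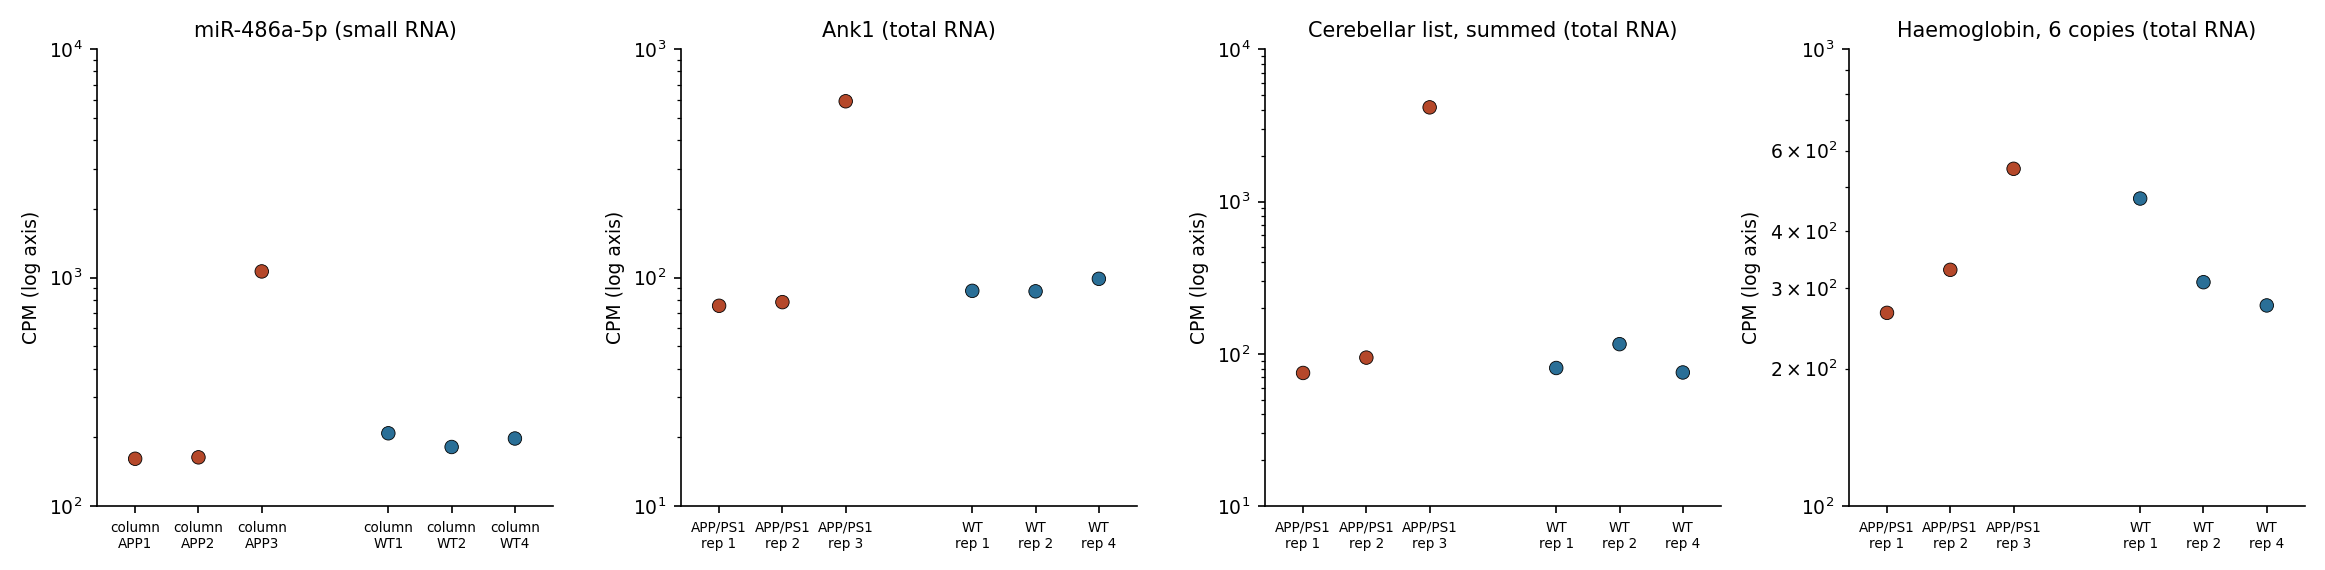
CPM on log axes of miR-486a-5p by small RNA column, and of Ank1, the sum of 10 cerebellar markers and the 6-copy haemoglobin sum by total RNA library; points are single columns or libraries. APP/PS1 replicate 3 and column APP3 stand above the others, at 592 CPM for Ank1, 1065 CPM for miR-486a-5p and 4154 CPM for the cerebellar sum, and less so for haemoglobin at 547 CPM.

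Set side by side by genotype only, 6-copy haemoglobin spanned 265 to 547 CPM in APP/PS1, against 275 to 471 CPM in WT. On the separate scale of the small RNA table, miR-451a spanned 205 to 385 CPM in APP/PS1, against 197 to 345 CPM in WT. In neither table did 1 genotype lie apart from the other. As shares, 6-copy haemoglobin was 0.0259% to 0.0558% of all estimated counts in APP/PS1 and 0.0275% to 0.0463% in WT.

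Genes that act around haemoglobin were described next, in 7 lists of 85 symbols, of which 82 were in the total RNA table and 69 were tested. By edgeR's quasi-likelihood test 0 of the 69 passed, with a smallest adjusted p of 0.887, and 3 had an unadjusted p under 0.05, beside 617 of all 18060 genes (3.42%). With DESeq2 0 passed and 4 had an unadjusted p under 0.05. Their median log2 fold change was -0.02, beside 0.01 over all genes tested.

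Haem synthesis genes encode the other enzymes and carriers that make haem. Of 12 tested, 8 were positive and 4 negative, with a median log2 fold change of 0.06. Alas1, the housekeeping counterpart of Alas2, stood at 49.0, 48.4 and 41.5 CPM in APP/PS1, against 41.0, 45.1 and 45.9 CPM in WT. Fech, the ferrochelatase that inserts the iron, had -0.10 (SE 0.08), Cpox 0.04 (SE 0.11) and Tmem14c, a mitochondrial porphyrin carrier, 0.26 (SE 0.13). The summed CPM of this list was 259 to 269 in APP/PS1 and 248 to 263 in WT. Its most variable member was Alad, the enzyme after aminolevulinate synthase, named after its values were seen, at 20.8, 20.4 and 46.1 CPM in APP/PS1, against 35.9, 18.4 and 33.8 CPM in WT.

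Genes of the red cell membrane differed widely in level. Sptb, encoding beta-spectrin, stood at 455, 409 and 671 CPM in APP/PS1, against 462, 407 and 414 CPM in WT, and Epb41, encoding protein 4.1R, at 33.3, 41.8 and 225 CPM in APP/PS1, against 33.4, 43.0 and 46.8 CPM in WT. Both, like Ank1, were highest in APP/PS1 replicate 3. By contrast 1 of the red cell's own surface proteins was near the detection limit. Slc4a1, the band 3 anion exchanger, was at 0.14, 0.24 and 2.01 CPM in APP/PS1, against 0.46, 0.53 and 0.31 CPM in WT. Of 14 listed genes 11 were tested, 6 positive and 5 negative, with a median of 0.26. Aqp1, a water channel of red cells and of the choroid plexus, had 0.75 (SE 0.26) with 8.80, 16.9 and 12.7 CPM in APP/PS1, against 7.58, 9.04 and 6.20 CPM in WT. The summed choroid plexus list was 1865, 4151 and 2507 CPM in the same APP/PS1 libraries, against 1571, 1874 and 1748 CPM in WT replicates. Of its 10 genes, all positive, 5 had an unadjusted p under 0.05 (3.42% of all genes did) and 0 passed edgeR's test, with Ttr, encoding transthyretin, at 0.73 (SE 0.29) and Prlr, the prolactin receptor, at 0.71 (SE 0.24). The part of choroid plexus RNA in the Aqp1 value was not tested.

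Reticulocyte cytoplasm genes were, where abundant, ones that brain also expresses. Bnip3l, a mitophagy receptor, stood at 106, 114 and 109 CPM in APP/PS1, against 114, 111 and 108 CPM in WT, and Ube2o, a ubiquitin ligase of reticulocyte remodelling, at 150, 143 and 132 CPM in APP/PS1, against 155, 149 and 150 CPM in WT. Isg20, an exonuclease, and Mkrn1, a ubiquitin ligase, had -0.52 (SE 0.30) and 0.17 (SE 0.09). Car1, the red cell carbonic anhydrase, was at 0 in 4 of the 6 libraries. Of 11 tested, 3 were positive and 8 negative, with a median of -0.06.

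Among the erythroid transcription factors Gata1, Gfi1b, Klf1 and Nfe2 were at or near 0, and the others were not. Gata1 was at most 0.04 CPM in either genotype and Gfi1b was at 0 counts in all 6 libraries, while Klf1 stood at 0.17, 0.21 and 0.35 CPM in APP/PS1, against 0.21, 0.30 and 0.11 CPM in WT. The factors at higher levels are shared with neurons: Bcl11a at 162, 152 and 80.9 CPM in APP/PS1, against 150, 150 and 164 CPM in WT, Ldb1 with a log2 fold change of -0.001 (SE 0.07) and Zfpm1 with -0.14 (SE 0.13). Lmo2 was at 9.09 to 10.2 CPM in APP/PS1, against 9.45 to 9.52 CPM in WT. Epor was at 1.74 to 2.34 CPM in APP/PS1, against 2.01 to 2.63 CPM in WT. Tal1, at 1.41 to 1.64 CPM in APP/PS1 against 1.34 to 2.25 CPM in WT, had -0.24 (SE 0.24). Of 8 tested, 2 were positive and 6 negative, with a median of -0.15.

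Apart from Hbb-b1 and Hbb-b2, the globin with the highest CPM on the list was Cygb, the cytoglobin of fibroblast-like and some neural cells, at 49.6, 46.2 and 39.6 CPM in APP/PS1, against 49.9, 51.8 and 43.6 CPM in WT. The embryonic globins Hbb-bh1, Hbb-bh2 and Hba-x were at 0 in all 6 libraries. Hbb-y, also embryonic, was at 0, 0.09 and 0 CPM in APP/PS1, against 0.04, 0.07 and 0 CPM in WT. The theta-globin genes Hbq1a and Hbq1b had -0.87 (SE 0.35) and -0.62 (SE 0.30). Hbq1b did not overlap between genotypes, at 0.43, 0.33 and 0.42 CPM in APP/PS1, against 0.76, 0.54 and 0.52 CPM in WT, where 4.76% of all genes were lower without overlap. Of 7 tested, Hbb-b1 and Hbb-b2 among them, 1 was positive and 6 negative, with a median of -0.62. Neuroglobin, Ngb, was at 0.97 to 1.54 CPM in APP/PS1, against 0.88 to 3.61 CPM in WT.

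**Figure D5:**
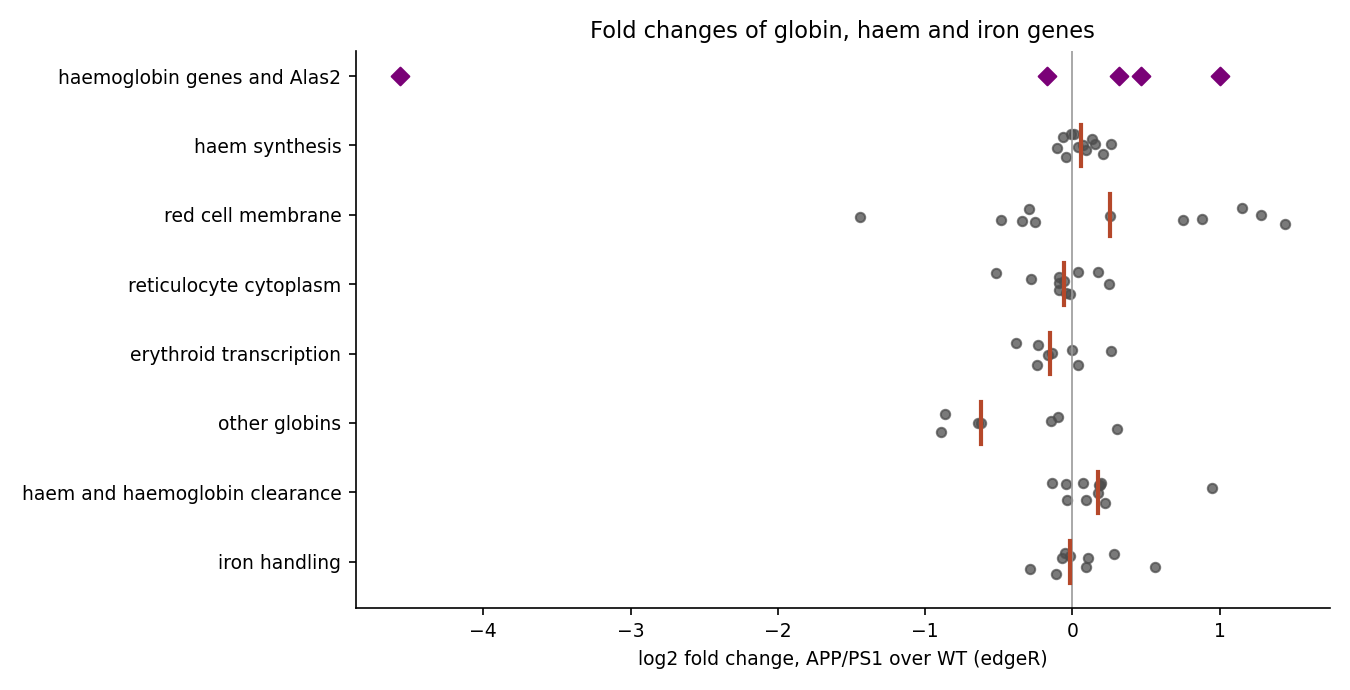
Log2 fold changes, APP/PS1 over WT (edgeR), of the 5 member genes (diamonds) and of the tested genes of 7 lists (points), with list medians as vertical bars. The diamond at -4.56 is Hba-a2, whose share of the alpha counts differed between libraries, and list medians lie between -0.62 and 0.26.

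Genes that clear haem and free haemoglobin had a median of 0.17, with 8 of 11 positive. Lrp1, the receptor for the haem carrier haemopexin, had 0.09 (SE 0.10), Hmox2, the constitutive haem oxygenase, -0.04 (SE 0.08), and Slc48a1, a haem transporter, -0.14 (SE 0.09). Hmox1, the inducible haem oxygenase chosen after its values were seen, was at 4.36, 5.68 and 4.81 CPM in APP/PS1, against 5.29, 4.30 and 3.50 CPM in WT. Hpx, encoding haemopexin, had 0.95 (SE 0.64) at no more than 0.40 CPM in APP/PS1, against 0.26 CPM in WT. Iron handling genes had a median of -0.02, with 4 of 9 positive. Ireb2, an iron-sensing regulator of mRNAs, had 0.28 (SE 0.11), with 92.7, 101 and 121 CPM in APP/PS1, against 85.6, 85.0 and 88.6 CPM in WT, Slc11a2, an iron importer, 0.56 (SE 0.26), Fth1, the ferritin heavy chain, -0.07 (SE 0.15), and Trf, the transferrin gene, -0.11 (SE 0.14).

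Markers of other blood cells were low in every library. The summed level of 10 platelet genes was 5.30 to 6.70 CPM in APP/PS1, against 5.18 to 5.90 CPM in WT, with Gp6 at 0 throughout. For 9 neutrophil genes it was 5.46 to 7.63 CPM in APP/PS1, against 6.79 to 7.13 CPM in WT, and most of that was Csf3r, which microglia also express. For 7 measured lymphocyte genes it was 0.24 to 0.61 CPM in APP/PS1, against 0.24 to 0.52 CPM in WT, with Cd3d at 0. The sum of 11 endothelial genes was 256, 283 and 314 CPM in APP/PS1 replicates 1, 2 and 3, against 268, 290 and 301 CPM in WT replicates 1, 2 and 4. That of 8 mural cell genes was 221, 282 and 301 CPM, against 257, 279 and 305 CPM. APP/PS1 replicate 1 was the lowest of the 6 for haemoglobin, endothelial and mural sums alike, while WT replicate 1, with the second highest haemoglobin, was the next lowest for both vessel sums. No platelet, white cell, endothelial or mural gene passed edgeR's test (0.00554% of all genes did). Among them 2 had an unadjusted p under 0.05 (3.42% of all genes did), both from the 11 endothelial genes. They went in opposite directions, Ly6c1 with -0.28 (SE 0.09) and Kdr with 0.20 (SE 0.08).

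Of 14 other miRNAs known from red cells, 0 of 14 passed edgeR's test and 0 had an unadjusted p under 0.05 (3.56% of all miRNAs did). DESeq2 called 0 as well. Their median log2 fold change was 0.21, with 9 positive and 5 negative, beside -0.03 over all 703 miRNAs. These 14 include miR-486b-5p, with the counts of miR-486a-5p, and miR-486a-3p and miR-486b-3p, with the same counts as each other. Over the 12 with counts of their own that are not a member's, the median was 0.05, with 7 positive and 5 negative. miR-16-5p stood at 725, 619 and 1345 CPM in columns APP1, APP2 and APP3, against 824, 592 and 702 CPM in columns WT1, WT2 and WT4. miR-25-3p was at 336, 332 and 499 CPM, against 376, 365 and 369 CPM, and miR-185-5p had a log2 fold change of 0.36 (SE 0.19). Of the white cell miRNAs, miR-150-5p, of lymphocytes, was at 171, 180 and 199 CPM in APP/PS1, against 184, 195 and 212 CPM in WT. The summed level of the list was 270 to 304 CPM in APP/PS1, against 295 to 324 CPM in WT, and its scarcest member, miR-223-5p, named after its values were seen, ran from 0.19 to 1.45 CPM in APP/PS1, against 0.38 to 1.32 CPM in WT. Vessel miRNAs had a median of 0.09, with miR-126a-3p, of endothelium, at 0.003 (SE 0.17) and miR-143-3p, of smooth muscle, at 0.09 (SE 0.26).

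The genes whose levels followed summed haemoglobin most closely over the 6 total RNA libraries were ranked by Pearson's r of log2 CPM, among 2457 genes with a mean of at least 1 CPM and at least a 2-fold range. For the sum of 4 copies they were Gm14204 (r = 0.96), Mcc, Stat5a, Ttll9, Wdhd1, Cdc42ep1, Pitpnm3 and Ctxn3 (r = 0.93), and 26 candidates had r over 0.9. For the sum of 6 copies, added after the data were seen, they were Pex2 (r = 0.996), Adamts4, Faap20, Mdm2, Rad54l, Pitpnm3, Nxph4 and Mcam (r = 0.91). With that sum 11 candidates had r over 0.9. Only Pitpnm3 was named for both sums. It stood at 30.5, 26.7 and 90.7 CPM in APP/PS1, against 63.0, 38.0 and 32.5 CPM in WT. With 6 libraries, of which 1 holds the highest value, these likenesses are descriptions. For miR-451a, among 95 miRNAs, the closest were miR-378d (r = 0.80), miR-129-2-3p, miR-133a-3p, miR-34a-5p, miR-129-1-3p and miR-124-3p (r = 0.73), and 0 had r over 0.9.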

How the data were processed

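Stranded total RNA and small RNA libraries of hippocampus were made with Illumina TruSeq kits, per the labels' protocols. Build mm10 and 3 tools, HISAT2, StringTie and DESeq, are listed in the submitters' processing notes, with neither roles nor versions. How reads were counted, on which annotation and with what strand setting is not given in the sources used here. The authors deposited whole-number estimated counts per gene symbol, used without further rounding. Among its low values 4 was found 1817 times but 3 only 897 times, so 1 fragment may stand for about 4 estimated counts and depth in fragments is uncertain. For small RNA the deposited values are raw counts, 1 row per mature miRNA.

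APP/PS1 was compared with WT in each whole table by the quasi-likelihood test of edgeR 4.0.16 in R 4.3.3, with TMM scaling, edgeR's default filter, no covariate and Benjamini-Hochberg adjustment at 0.05. The filter kept 18060 genes and 703 miRNAs. SE was derived from the fold change and the F statistic. DESeq2 1.42.0 and other settings were alternatives. The biological coefficient of variation was 26.5% for total RNA and 26.2% for small RNA. The procedure was tested on simulated data. RefSeq (GRCm38.p6) matched 24076 symbols (97.3%) and 3 of the 4 member miRNA sequences.

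Members and lists were chosen with earlier results of these data known. Cerebellar and muscle lists, the 6-copy sum, leaving out libraries for the alpha and beta sums, and the count of distinct red cell miRNAs were added after the data were seen. From each list, members past the threshold, or else up to 3 most abundant and 2 with the smallest p, were eligible for naming, and likeness was ranked on log2(CPM + 0.5). Genes named beyond these were picked after their values were seen. Single values of some list members are not reported here.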

Additional observations from a re-analysis of the deposited data

How the results depend on the processing

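No alternative moved a listed gene or miRNA past the threshold: 0 of the 7 gene lists' members and 0 of the listed miRNAs were called under every setting run. Over all genes, edgeR called 1 gene, and DESeq2 called 24 (11 higher, 13 lower), the fit with the replicate number as a block 2, and fits without 1 library 0 to 6: 0 without WT replicate 1 or WT replicate 2, 4 without WT replicate 4, 5 without APP/PS1 replicate 3 and 6 without APP/PS1 replicate 1. Over all miRNAs edgeR called 0, with 25 at an unadjusted p under 0.05, and 5 were called with no count filter and 0 to 3 without 1 column (3 without column APP1). DESeq2 called 0 miRNAs. The log2 ratio of summed haemoglobin (4 copies), 0.17, became -0.77 within the shared replicate numbers 1 and 2 (the replicate block), and ran from -0.52 to 0.43 without 1 library. The cause was not tested. Over 6 copies, an alternative chosen after seeing the data, it was 0.11. That of miR-451a, 0.12, was 0.14 with DESeq2 size factors and 0.01 by plain column totals, and ran from -0.14 to 0.34 without 1 column. Deviations from group means correlated at 0.09 between the libraries numbered 1 and at -0.04 between those numbered 2, so the numbers were not taken to pair mice. No paired analysis was possible for small RNA because its columns are tied to a genotype only. Depth limits genes under about 1 CPM, such as Slc4a1 and Gata1.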

Other observations

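Other miRNAs were also high in small RNA column APP3 alone, as seen after the values were known. A ratio to the highest other column at least as large as that of miR-486a-5p was reached by 10 of 703 miRNAs (1.42%). These 10 include miR-486a-5p itself, miR-486b-5p with the same counts, and both miR-486a-3p and miR-486b-3p. miR-182-5p, on the list of red cell miRNAs and also abundant in sensory neurons, stood at 15.3, 16.7 and 152 CPM in columns APP1, APP2 and APP3, against 10.8, 22.6 and 16.4 CPM in columns WT1, WT2 and WT4. Its cluster partner miR-183-5p stood at 10.4, 17.5 and 122 CPM, against 15.9, 19.7 and 15.4 CPM. Besides miR-486b-5p, the miRNA closest to miR-486a-5p over the 6 columns was miR-497a-5p (r = 0.998), at 49.7, 45.8 and 216 CPM in APP/PS1 and 60.7, 52.4 and 54.4 CPM in WT. Of 95 candidates 33, miR-486b-5p among them, had r over 0.9 with miR-486a-5p. Calb1, a gene of hippocampal granule cells and of Purkinje cells, was at 99.3, 98.2 and 400 CPM in APP/PS1 replicates 1, 2 and 3, against 90.8, 90.4 and 83.0 CPM in WT replicates 1, 2 and 4.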
